A study of Mus musculus with 4 samples.

Results

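Plasma cell genes were followed in RNA-seq libraries of mouse pre-B cells, the marrow precursors that have assembled an immunoglobulin heavy chain but do not yet secrete antibody. The set holds 8 genes out of 23284 gene symbols in each library: Igj, Mzb1, Derl3, Fkbp11, Slpi, Sdc1, Tnfrsf17 and Prdm1. The genes were chosen by measured values of these same libraries, chiefly their lower FPKM in transgenic cells, so their levels are given as a description and without a test. All cells came from C57BL/6J mice, and each of 4 groups is 1 library. The groups were cells from STAP-2 knockout (KO) marrow 1 month after transplantation (Tx), wild-type (WT) marrow 1 month after transplantation, STAP-2 transgenic (Tg) marrow at steady state, and WT marrow at steady state. STAP-2 is signal-transducing adaptor protein-2, the product of Stap2, and the study looked for pathways it controls in B cell formation under stress. The promoter that drives the transgene, the host and conditioning of the transplants, and the number of mice behind each library are not stated in the labels. Both transplant libraries carry the code 0826 in their titles and both steady-state libraries the code 0901, so transplantation and whatever that code marks cannot be told apart.

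Plasma cells are the antibody-secreting end of the B lineage. Blimp-1, the product of Prdm1, together with IRF4 and XBP1, shuts down much of the B cell programme and expands the endoplasmic reticulum, where antibody chains are folded and assembled. The joining chain encoded by Igj (now Jchain) links IgM and IgA into polymers, while Mzb1 (also called pERp1), Derl3 and Fkbp11 act in that compartment. Mzb1 is a co-chaperone that helps assemble IgM, Derl3 belongs to the derlin family that removes misfolded proteins, and Fkbp11 is a prolyl isomerase. Slpi is a secreted inhibitor of leukocyte proteases that granulocytes and epithelia also make. On the surface, Sdc1 encodes syndecan-1 (CD138), which mouse B cell precursors carry before plasma cells do so again, and Tnfrsf17 encodes BCMA, a receptor for the survival factors APRIL and BAFF.

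The values carry no stated unit and were taken as FPKM, reads scaled to transcript length and library size, so levels can be set side by side between genes. Depth, estimated from the steps that single reads leave among low values, was 7280000 to 8700000 reads a library, and 10511 to 10648 symbols stood at 1 FPKM or more. With 1 library a group no difference has a replicate check. Ratios carry 95% Clopper-Pearson intervals from estimated reads, which cover counting error only. Differences are also given on the log2(FPKM + 1) scale, which understates the change of low genes. Stap2 does not check the labels, at 0.179 FPKM in the library labelled KO, listed at 0 in transplanted WT, and at 0.536 in Tg and 0.212 in WT at steady state. Directions for the library labelled KO and for the Tg library rest on their labels. All 11 B cell precursor markers looked for were above 2 FPKM in every library, among them Rag1 at 286 to 638 FPKM, and 3 of them differed several-fold between libraries, as given with the markers of other cells.

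The 8 genes did not move as a block. Igj, Slpi and Fkbp11 stood several-fold lower in both transplant libraries than in both steady-state libraries. Tnfrsf17 was listed in the same order, but with 2 reads in transplanted WT and 7 in Tg that step was within counting error (ratio of Tg over transplanted WT 3.73, 0.711 to 36.8). Mzb1, Derl3 and Prdm1 stayed within a 1.71-fold range over all 4 libraries, and Sdc1 within a 2.2-fold range. Igj spanned 42.3-fold, the widest range of the 8, and Mzb1 1.25-fold, the narrowest. Fewer cells of a type and less RNA per cell cannot be told apart in such bulk samples.

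Promoter windows from RefSeq (GRCm38.p6, 250 bases before to 50 after the start) were found for 7 of the 8 genes, Mzb1 being the other. Printed here are those of the 4 genes listed several-fold lower in both transplant libraries, Fkbp11 having a pair of windows, and that of Derl3, another gene of the endoplasmic reticulum, for which this was not so. Capitals mark the motif CCAAT, the motif ACGTG and the motif CCACG on either strand. These are parts of the elements through which ER stress factors such as ATF6 and XBP1 are known to act.
Igj, chr5:88527848-88528147, minus strand: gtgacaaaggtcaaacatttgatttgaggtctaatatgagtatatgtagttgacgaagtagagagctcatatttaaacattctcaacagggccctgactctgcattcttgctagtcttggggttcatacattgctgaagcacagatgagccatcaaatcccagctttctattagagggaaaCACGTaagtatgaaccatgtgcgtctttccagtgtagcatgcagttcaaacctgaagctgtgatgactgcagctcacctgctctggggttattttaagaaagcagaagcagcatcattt
Slpi, chr2:164356458-164356757, minus strand: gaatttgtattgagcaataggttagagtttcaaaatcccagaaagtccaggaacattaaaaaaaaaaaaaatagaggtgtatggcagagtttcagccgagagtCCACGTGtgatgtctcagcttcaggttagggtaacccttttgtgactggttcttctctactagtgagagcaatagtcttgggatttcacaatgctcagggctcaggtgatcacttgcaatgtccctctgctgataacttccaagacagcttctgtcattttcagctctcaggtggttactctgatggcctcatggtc
Fkbp11 window 1, chr15:98728149-98728448, minus strand: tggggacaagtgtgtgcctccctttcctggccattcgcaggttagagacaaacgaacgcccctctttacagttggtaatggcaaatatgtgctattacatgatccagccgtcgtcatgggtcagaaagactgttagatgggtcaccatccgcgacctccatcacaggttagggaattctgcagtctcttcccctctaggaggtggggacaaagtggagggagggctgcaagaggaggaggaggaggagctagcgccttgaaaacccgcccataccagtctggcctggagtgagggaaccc
Fkbp11 window 2, chr15:98727578-98727877, minus strand: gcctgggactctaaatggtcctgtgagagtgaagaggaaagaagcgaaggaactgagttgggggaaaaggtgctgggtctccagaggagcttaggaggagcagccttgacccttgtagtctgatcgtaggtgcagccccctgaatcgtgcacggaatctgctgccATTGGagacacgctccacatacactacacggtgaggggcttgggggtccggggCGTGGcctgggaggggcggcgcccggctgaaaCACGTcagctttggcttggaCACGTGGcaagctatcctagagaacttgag
Tnfrsf17, chr16:11313559-11313858, plus strand: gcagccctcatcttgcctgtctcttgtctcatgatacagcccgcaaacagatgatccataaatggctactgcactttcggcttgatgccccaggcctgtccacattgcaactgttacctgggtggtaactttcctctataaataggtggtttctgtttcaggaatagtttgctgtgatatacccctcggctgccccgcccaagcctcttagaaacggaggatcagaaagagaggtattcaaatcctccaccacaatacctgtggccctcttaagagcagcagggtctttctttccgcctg
Derl3, chr10:75893148-75893447, plus strand: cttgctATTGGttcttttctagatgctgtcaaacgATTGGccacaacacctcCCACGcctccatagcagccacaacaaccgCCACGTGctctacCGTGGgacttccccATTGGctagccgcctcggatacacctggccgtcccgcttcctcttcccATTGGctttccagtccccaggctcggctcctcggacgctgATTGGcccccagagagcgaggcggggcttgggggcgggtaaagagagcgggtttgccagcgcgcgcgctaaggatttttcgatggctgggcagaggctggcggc
The Derl3 window held 5 matches to CCAAT, 3 to CCACG and 2 to ACGTG, counted on both strands, where CCACG and ACGTG overlap in CCACGTG. The Igj window held 1 ACGTG and neither of the other motifs, and that of Tnfrsf17 held none of the 3. In the Slpi window ACGTG was counted 2 times and CCACG 1 time, all within a single CCACGTG. Window 1 of Fkbp11 held none of the 3 motifs, and window 2 held 1 CCAAT, 3 ACGTG and 2 CCACG. Sdc1 had 1 CCAAT, 1 CCACG and no ACGTG, and Prdm1 had 1 CCAAT, 2 CCACG and no ACGTG. The motif CCAAT was thus in the windows of Derl3, Sdc1 and Prdm1. Among the 4 genes listed several-fold lower in both transplant libraries, it was only in window 2 of Fkbp11. Each of the other motifs was found both among those 4 genes and outside them. Whether any motif goes with the levels after transplantation was not tested on these 7 genes. Of 32851 promoter windows of the same length, 37.4% held CCAAT, 19.6% ACGTG and 32.8% CCACG. The full spaced element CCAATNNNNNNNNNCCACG, searched after the sequences had been seen, occurred in 0.119% of these windows, 39 in number. Derl3 was the only one of the 7 genes with a match to it, on the opposite strand, and its leftmost base lay 156 bases before the start. GGAA and CANNTG were also searched and were in 96.0% and 72.3% of all windows, and every window of these 7 genes held both. A match describes letters only, and no factor was measured on these windows.

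Igj (chromosome 5, 88519809 to 88527891, minus strand, GRCm38) had 7.23 FPKM in the library labelled KO and 16.6 in transplanted WT, against 204 in Tg and 306 in WT at steady state. These rest on 74, 152, 1758 and 2655 estimated reads in the same order, and every step in the order of levels was larger than counting error. In steady-state WT, Igj lay above 97.9% of the genes at 1 FPKM or more, and in the library labelled KO above 27.3% of them. Its 2 steady-state values thus sat among the most abundant transcripts of these cells and its 2 transplant values among ordinary ones.

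Slpi (chromosome 2, 164354070 to 164389095, minus strand) followed the same order, with 2.41 FPKM in the library labelled KO, 4.44 in transplanted WT, 16.9 in Tg and 36.1 in steady-state WT. Both transplant values lay below both steady-state values, and only the step between the transplant libraries was within counting error. A microRNA gene lies within its exons on the same strand. Fkbp11 (chromosome 15, 98724366 to 98728198, minus strand) stood at 0.872 and 0.488 FPKM in the library labelled KO and in transplanted WT, against 4.69 in Tg and 5.68 in steady-state WT. Those transplant values are 4 and 2 reads, so which of them is lower was not detectable at this depth. Tnfrsf17 (chromosome 16, 11313812 to 11320074, plus strand) was the lowest of the 8, at 0.191 and 0.427 FPKM in the library labelled KO and in transplanted WT, 1.59 in Tg and 3.61 in steady-state WT. Its estimated reads were 1, 2, 7 and 16. Neighbouring levels of Tnfrsf17 did not differ beyond counting error, while transplanted WT lay below steady-state WT by 8.47-fold (1.99 to 75.9).

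Mzb1, which the files list under its older symbol 2010001M09Rik (chromosome 18), had 206 FPKM in the library labelled KO, 247 in transplanted WT, 249 in Tg and 258 in steady-state WT. It lay above 96.7% to 97.5% of the genes at 1 FPKM or more in each library, and it was the most abundant of the 8 in all libraries but steady-state WT. Only the step down to the library labelled KO was larger than counting error. Exons of Spata24, on the same strand, overlap those of Mzb1, and Spata24 itself stood at 7.51 to 10.1 FPKM. Derl3 (chromosome 10, 75893413 to 75895941, plus strand) had 14.8 FPKM in the library labelled KO, 16.6 in transplanted WT, 13.4 in Tg and 21.0 in steady-state WT. Only steady-state WT stood apart from its neighbour, and the transplant values lay between those of the steady-state libraries.

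Sdc1 (chromosome 12, 8771323 to 8793715, plus strand) had 27.2 FPKM in the library labelled KO, 19.8 in transplanted WT, 31.8 in Tg and 43.5 in steady-state WT. Each step in its order of levels exceeded counting error, and unlike Igj it was higher in the library labelled KO than in transplanted WT. Prdm1 (chromosome 10, 44437177 to 44528501, minus strand), the gene of the plasma cell regulator Blimp-1, was at 2.47, 3.24, 3.01 and 4.23 FPKM in the same order of libraries. No neighbouring levels of Prdm1 differed beyond counting error. It ranked low throughout, above 9.45% of the genes at 1 FPKM or more in the library labelled KO and above 17.3% of them in steady-state WT.

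**Figure D1:**
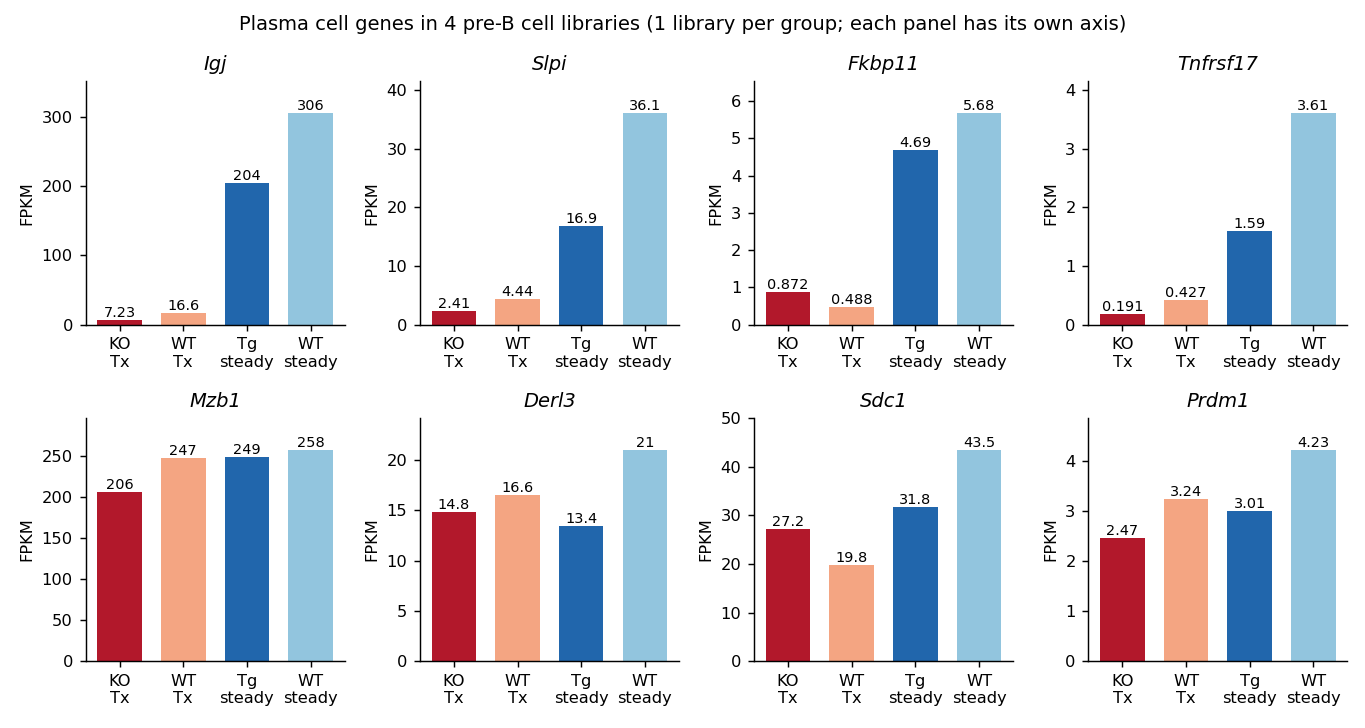
Bars give the FPKM of each plasma cell gene (1 panel a gene, each with its own axis from 0) in the library labelled KO and WT after transplantation (Tx) and in Tg and WT at steady state, 1 library each. Igj, Slpi, Fkbp11 and Tnfrsf17 (top) are low in both transplant libraries, with Igj at 7.23 and 16.6 against 204 and 306 FPKM, while Mzb1 ranges from 206 to 258 FPKM.

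Tg cells were set against WT cells at steady state to ask what excess STAP-2 does without transplantation. This contrast helped to choose the genes, so nothing is read from its counts. All 8 genes were lower in Tg, beside 53.3% lower and 46.7% higher among 10843 genes that reached 1 FPKM in at least 1 of both. Their median difference was -0.51 on the log2(FPKM + 1) scale, against -0.02 over all genes. The intervals of 5 of the 8 lay wholly below 1 (Igj, Derl3, Slpi, Sdc1 and Prdm1), as did 18.3% of all genes with estimated reads. Slpi, 2.14-fold lower (1.64 to 2.82), was the only member at least 2-fold lower on that scale, as were 0.682% of all genes. Derl3 was 1.57-fold lower (1.23 to 2.01), Igj 1.50-fold (1.41 to 1.59), Prdm1 1.41-fold (1.05 to 1.88) and Sdc1 1.37-fold (1.24 to 1.51). Mzb1 was at a ratio of 0.965 (0.892 to 1.04), and with 18 and 22 reads Fkbp11 had a ratio of 0.825 (0.417 to 1.61). Tnfrsf17, with 7 and 16 reads, had a ratio of 0.441 (0.153 to 1.13).

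The library labelled KO was set against WT, both 1 month after transplantation, to ask what loss of STAP-2 does in recovering marrow. Igj was 2.30-fold lower (1.73 to 3.08) in the library labelled KO and Mzb1 1.20-fold lower (1.11 to 1.29), whereas Sdc1 was higher, at a ratio of 1.37 (1.22 to 1.55). For the other 5 genes the interval included 1. Among all genes 22.3% had an interval wholly below 1 and 15.3% one wholly above it. Over all 8 genes, 6 were lower and 2, Sdc1 and Fkbp11, higher, beside 56.0% lower and 44.0% higher among 10790 genes. Their median difference was -0.26, against -0.03 over all genes. Only Igj passed 2-fold on the log2(FPKM + 1) scale, in the lower direction, as did 1.18% of all genes. Fkbp11 and Tnfrsf17 were below 1 FPKM in both libraries, so 6 of the 8 genes are among the 10790.

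Transplanted WT was also set against steady-state WT, which serves in the Tg comparison as well, so both comparisons share that library. Igj was 18.4-fold lower (15.6 to 21.8) in transplanted WT, a difference of -4.12 on the log2(FPKM + 1) scale. Fkbp11 was 11.6-fold lower (2.86 to 102) and Slpi 8.14-fold lower (5.26 to 13.2). Sdc1 was 2.2-fold lower (1.96 to 2.46) and Derl3 1.27-fold lower (1.01 to 1.60). For Prdm1, at a ratio of 0.766 (0.579 to 1.01), and Mzb1, at 0.958 (0.887 to 1.03), the interval included 1. The intervals of 6 of the 8 lay wholly below 1, as did 19.2% of all genes. All 8 genes were lower in transplanted WT, beside 54.1% lower and 45.9% higher among 10835 genes, with a median of -1.39 against -0.02 over all genes. At least 2-fold lower were 5 of the 8, Igj, Slpi, Fkbp11, Tnfrsf17 and Sdc1, beside 0.628% of all genes. Each of the 8 was highest in steady-state WT, the reference of the Tg contrast that helped to choose them. For that reason nothing is read from these counts either. No member was at least 2-fold higher in any comparison, beside 1.22% of all genes in Tg, 0.667% in the library labelled KO and 1.67% in transplanted WT.

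**Figure D2:**
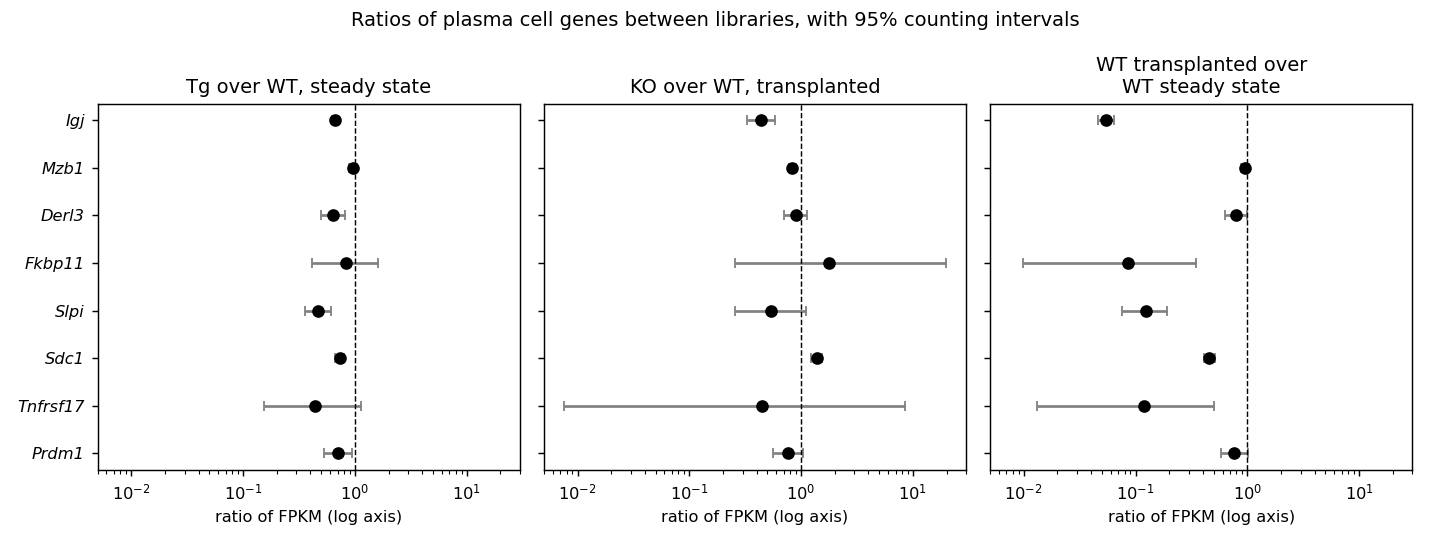
Points give the ratio of FPKM between libraries for each plasma cell gene on a log axis (Tg over WT at steady state, labelled KO over WT after transplantation, and WT after transplantation over WT at steady state), with 95% counting intervals. In the right panel Igj lies at 0.0543, Fkbp11 at 0.0859, Tnfrsf17 at 0.118 and Slpi at 0.123, while Mzb1 lies at 0.958.

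Each gene was also expressed relative to Igj within its library. The genes were chosen for lower values in Tg, so nothing is read from how near the Tg and WT ratios lie. Sdc1 stood at 15.6% of Igj (14.3 to 17.0) in Tg and 14.2% (13.2 to 15.3) in WT at steady state. Derl3 stood at 6.57% (5.36 to 7.98) in Tg and 6.88% (5.86 to 8.03) in WT. Mzb1, which was near level where Igj was lower in Tg, was at 1.22 times Igj (1.13 to 1.31) in Tg and 0.843 times (0.789 to 0.901) in WT.

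After transplantation Igj itself was so much lower that a gene with an unchanged level was higher relative to it. Of 7 genes 5, Mzb1, Sdc1, Derl3, Prdm1 and Slpi, had both transplant intervals above both steady-state ones, as had 98.1% of 10827 genes, so this count says nothing particular about them. Mzb1 reached 28.6 times Igj (22.6 to 36.6) in the library labelled KO and 14.9 times (12.6 to 17.7) in transplanted WT. Sdc1 stood at 3.77 times Igj (2.96 to 4.85) in the library labelled KO and 1.19 times (0.991 to 1.44) in transplanted WT. Slpi, which was lower along with Igj, was at 33.4% of Igj (17.4 to 59.6) in the library labelled KO and 26.7% (16.4 to 41.6) in transplanted WT, against 8.27% (6.55 to 10.3) in Tg and 11.8% (10.1 to 13.8) in steady-state WT. The remaining pair, Fkbp11 and Tnfrsf17, rest on few reads. Fkbp11 was at 12.1% (3.20 to 32.2) in the library labelled KO, 2.94% (0.353 to 10.8) in transplanted WT, 2.30% (1.36 to 3.64) in Tg and 1.86% (1.16 to 2.82) in steady-state WT. The interval of the library labelled KO lies above that of steady-state WT and overlaps that of Tg, and that of transplanted WT overlaps both. For Tnfrsf17 the ratio was 2.64% (0.0658 to 15.1) in the library labelled KO, 2.57% (0.309 to 9.45) in transplanted WT, 0.781% (0.314 to 1.61) in Tg and 1.18% (0.675 to 1.92) in steady-state WT, and the intervals all overlap. From which cells each gene's transcripts came was not tested.

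**Figure D3:**
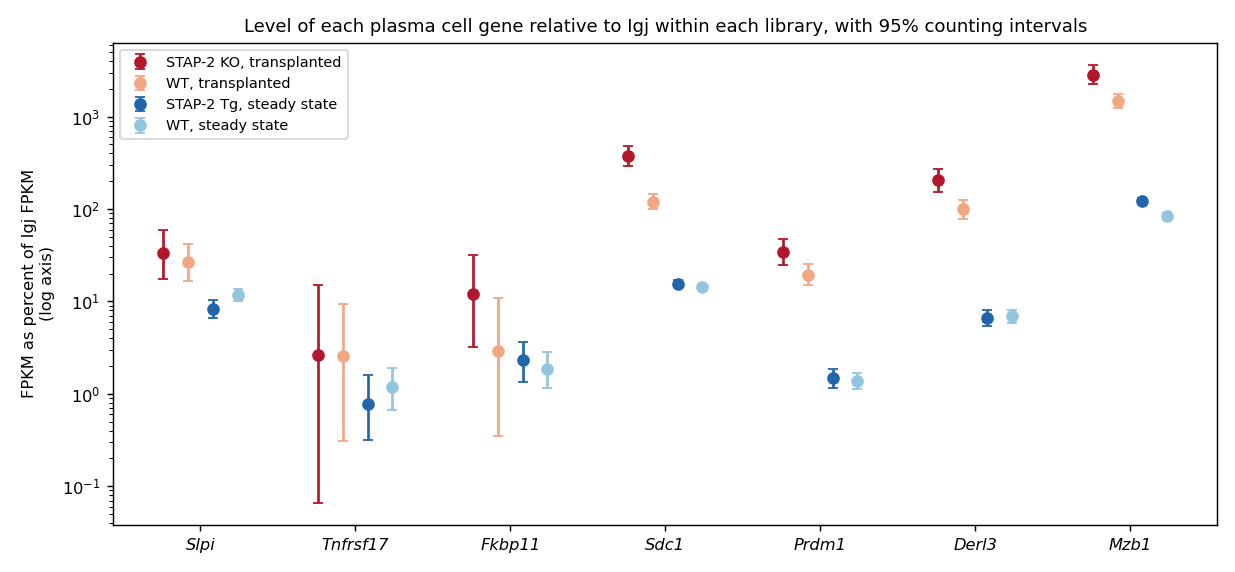
Points give the FPKM of each gene as a percentage of Igj FPKM in the same library (log axis), with 95% counting intervals, for the library labelled KO and WT after transplantation and for Tg and WT at steady state. Tnfrsf17 has overlapping intervals in all 4 libraries, while Sdc1, Prdm1, Derl3 and Mzb1 stand higher relative to Igj in the transplant libraries, as did 98.1% of all genes.

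By pattern over the 4 libraries, with log2(FPKM + 1) values centred on each gene's own mean, the 5 genes nearest to Igj among 8218 were Rnu12, Slpi, Cxcl12, Fkbp11 and Fam46c. Their Euclidean distances were 0.89, 1.86, 2.24, 2.70 and 2.80. Fam46c (now Tent5c), a poly(A) polymerase gene of plasma cells, had 1.14 FPKM in the library labelled KO, 0.849 in transplanted WT, 5.59 in Tg and 5.92 in steady-state WT. Cxcl12, a chemokine of marrow stroma, had 0.155, 0.348, 7.65 and 4.26 FPKM in that order. Rnu12 is a small nuclear RNA gene, listed at 0 in both transplant libraries, whose length-scaled value is uncertain. Tnfrsf17 and Prdm1, both below the 5 FPKM needed for the ranking, lay at distances of 3.04 and 4.17. Sdc1 lay at 3.88, Mzb1 at 4.27 and Derl3 at 4.34. Nearest to the mean of the other 7 members were Abca6, Fhit, Pcbp3, Sec24d and Eya1, at distances of 0.22 to 0.29. Sec24d, which encodes a coat protein of vesicles leaving the endoplasmic reticulum, had 2.18 FPKM in the library labelled KO, 2.65 in transplanted WT, 4.11 in Tg and 5.76 in steady-state WT.

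Other genes of the plasma cell programme were read from lists. Of 8 regulators of plasma cells, all measured, none was at least 2-fold apart in any of the 3 comparisons. Their medians were -0.12 for Tg minus WT, -0.15 for labelled KO minus WT, and -0.05 for transplanted minus steady-state WT. Xbp1, the transcription factor gene of secretory cells, had 53.8 FPKM in the library labelled KO, 56.8 in transplanted WT, 60.7 in Tg and 63.1 in steady-state WT. Irf4, which pre-B cells also use, had 220 FPKM in the library labelled KO, 181 in transplanted WT, 173 in Tg and 259 in steady-state WT. The elongation factor gene Ell2, which favours the secreted form of heavy chain mRNA, was at 7.36, 10.6, 10.7 and 11.8 FPKM in the same order. Steady-state WT had the highest value of the 4 libraries for Xbp1, Irf4 and Ell2, while for the rest of the 8 regulators another library was highest. For Ell2 the step from steady-state WT to Tg was within counting error (ratio of Tg over WT 0.910, 0.781 to 1.06). Creb3l2 stood at 7.33, 9.41, 6.54 and 9.21 FPKM and Zbtb20 at 2.25, 3.57, 4.98 and 4.77 FPKM.

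All 40 genes of entry into, folding in and degradation from the endoplasmic reticulum were measured, and none of them was 2-fold apart in any comparison. Tg minus WT had 25 higher and 15 lower with a median of 0.07. Labelled KO minus WT had 19 higher and 21 lower, and transplanted minus steady-state WT 16 higher and 24 lower, both at -0.01. The most changeable by the naming rule was Dnajb9, an XBP1-dependent co-chaperone, with 22.4 FPKM in the library labelled KO, 39.1 in transplanted WT, 21.8 in Tg and 33.7 in steady-state WT. Txndc5, a disulphide isomerase gene high in plasma cells, was at 63.3, 81.8, 67.8 and 79.6 FPKM in that order. Both were lower in Tg and in the library labelled KO than in the WT library of each pair, with ratios of transplanted over steady-state WT of 1.16 (1.04 to 1.30) and 1.03 (0.955 to 1.10). Txndc11 was also lower in Tg (ratio 0.783, 0.739 to 0.829) and in the library labelled KO (0.826, 0.781 to 0.875). Rpn1 was higher in Tg (ratio 1.29, 1.17 to 1.43), and in the library labelled KO its interval included 1 (0.989, 0.894 to 1.10).

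Other surface genes of plasma cells and plasmablasts numbered 12, all measured. At steady state 6 of 11 at 1 FPKM or more were higher in Tg, with a median of 0.00093. After transplantation 7 of 10 were lower in the library labelled KO, with a median of -0.39, and 5 of 10 were higher in transplanted than in steady-state WT, with a median of 0.13. None of the list passed 2-fold on the log2(FPKM + 1) scale in any comparison. By plain ratio Il5ra was 2.21 times as high (1.64 to 2.99) in transplanted as in steady-state WT. Ly6c2 was at 15.1 FPKM in the library labelled KO, 26.1 in transplanted WT, 21.8 in Tg and 15.9 in steady-state WT. Tnfrsf13b (TACI), a receptor for the same ligands as BCMA, was at 18.5, 29.3, 19.8 and 17.4 FPKM in that order, unlike Tnfrsf17, whose highest value was in steady-state WT. Il5ra and Il6st were 1.71-fold lower in the library labelled KO than in transplanted WT, at ratios of 0.585 (0.451 to 0.757) and 0.584 (0.516 to 0.661).

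Genes that plasma cells turn down included B cell regulators and surface molecules. In Tg, 7 of 13 such genes were higher and 6 lower, with a median of 0.09. In the library labelled KO, 11 of 14 were lower, with a median of -0.36, and 10 of 13 were higher in transplanted than in steady-state WT, with a median of 0.36. Myc was at 17.2 FPKM in the library labelled KO and 38.0 in transplanted WT, against 12.9 in Tg and 10.8 in steady-state WT. Ms4a1 (CD20), a marker of maturing B cells, had 263 FPKM in the library labelled KO, 412 in transplanted WT, 171 in Tg and 156 in steady-state WT. The 12 immunoglobulin constant region symbols looked for matched none of those listed, so antibody chains were not analysed here.

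**Figure D4:**
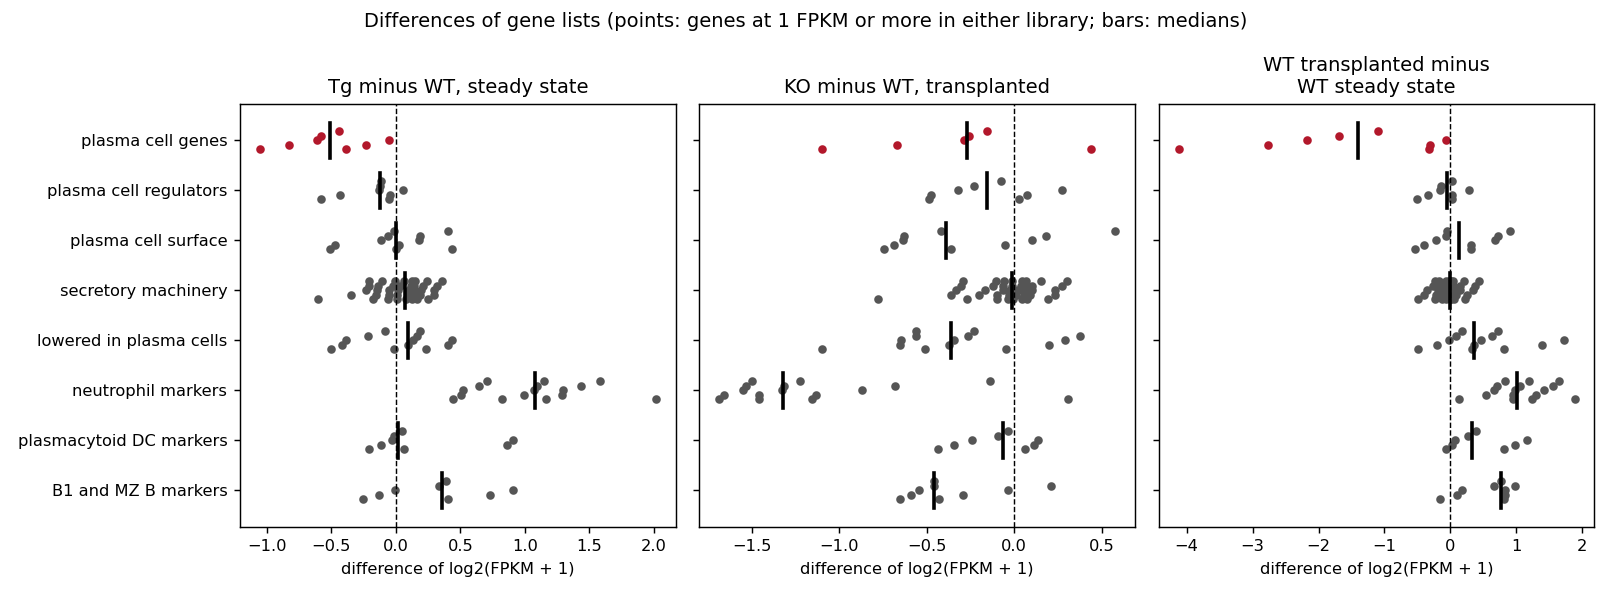
Points give the difference of log2(FPKM + 1) of each gene that reached 1 FPKM in either library, by list and comparison, as the first-named library minus the second, and black bars are medians. The plasma cell genes (red) have medians of -0.51 and -1.39 in the left and right panels, where neutrophil markers lie at 1.08 and 1.02, and the secretory machinery stays near 0.

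Markers of B cell precursors were first read beside the 8 genes. Of 11, all measured, 4 were higher and 7 lower in Tg than in WT, with a median of -0.12. In the library labelled KO 7 were higher and 4 lower, with a median of 0.16, and 5 were higher and 6 lower in transplanted than in steady-state WT, with a median of -0.25. Their summed level was 3555 FPKM in the library labelled KO, 3804 in transplanted WT, 3549 in Tg and 4181 in steady-state WT.

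Vpreb1, Igll1 and Dntt, 3 markers of earlier stages, had the largest differences of that list in both comparisons with steady-state WT. Vpreb1, which encodes a part of the surrogate light chain, was at 38.6 FPKM in the library labelled KO, 30.2 in transplanted WT, 34.4 in Tg and 7.31 in steady-state WT. Igll1, the gene of its partner chain, had 49.7 FPKM in the library labelled KO, 36.4 in transplanted WT, 39.9 in Tg and 14.6 in steady-state WT. Dntt, the gene of terminal transferase, was at 15.1, 12.1, 7.53 and 2.12 FPKM in that order. For all 3, steady-state WT was the lowest library. Their ratios of Tg over WT at steady state were 4.71 (3.15 to 7.23) for Vpreb1, 2.73 (2.07 to 3.63) for Igll1 and 3.55 (2.34 to 5.51) for Dntt, where the 8 plasma cell genes were lower. Those of transplanted over steady-state WT were 4.13 (2.76 to 6.36), 2.49 (1.88 to 3.32) and 5.68 (3.84 to 8.66). Rag1, a subunit of the V(D)J recombinase, was lower in both, at ratios of 0.672 (0.660 to 0.684) and 0.711 (0.698 to 0.723). Il7r, of the same list, had 256 FPKM in the library labelled KO, 176 in transplanted WT, 276 in Tg and 240 in steady-state WT. Sox4 was at 179, 203, 158 and 241 FPKM in that order, so these genes did not share the pattern of Vpreb1, Igll1 and Dntt. The part of such marker differences in the levels of the 8 genes was not tested.

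Markers of other cells that express some of the 8 genes were also read. Of 17 neutrophil and myeloid progenitor markers 16 were found, all at 0.530 FPKM or more in every library. Their summed level was 664 FPKM in the library labelled KO, 1723 in transplanted WT, 1863 in Tg and 780 in steady-state WT. All 16 were higher in Tg than in WT at steady state, and all 16 in transplanted than in steady-state WT, the comparisons in which Slpi was lower. In the library labelled KO 15 of 16 were lower, as Slpi was (ratio 0.543, 0.259 to 1.10). Retnlg, a granulocyte gene, was at 11.5 FPKM in the library labelled KO, 26.4 in transplanted WT, 45.7 in Tg and 10.6 in steady-state WT.

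Plasmacytoid dendritic cells also express Mzb1. Of 14 of their markers, the defining Siglech was at 0.421 FPKM in the library labelled KO, 0.589 in transplanted WT, listed at 0 in Tg and at 0.499 in steady-state WT. Cd209d was listed at 0 in all 4 libraries, and Ccr9 stood at 0.0838 to 0.334 FPKM. Other markers of the list were well above these, with Irf8 at 119 to 145 FPKM, Tcf4 at 30.9 to 33.1 and Cox6a2 at 9.15 to 11.7. Bst2 stood at 27.1 to 67.2 FPKM, lowest in steady-state WT. Its ratio was 1.84 (1.46 to 2.33) for Tg over WT at steady state. For transplanted over steady-state WT it was 2.29 (1.84 to 2.87). The list summed to 2042 FPKM in the library labelled KO, 2540 in transplanted WT, 2088 in Tg and 1813 in steady-state WT, mostly from Ly6d and Plac8, which B lineage cells express too. Over the 8 markers that reached 1 FPKM the medians were 0.01 for Tg minus WT, -0.06 for labelled KO minus WT and 0.33 for transplanted minus steady-state WT. Of these markers 4 were higher and 4 lower in Tg, and 3 higher and 5 lower in the library labelled KO. In transplanted against steady-state WT 7 were higher and 1 lower. The part of either cell type in the levels of the 8 genes was not tested.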

How the data were processed

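RNA-seq was read from 4 libraries, 1 a group. Per the labels' protocols, RNA came from a miRNeasy kit and the stranded libraries from TruSeq mRNA reagents. The build was mm10, and Cufflinks 2.2.1, TopHat2 2.0.13, SAMtools 0.1.19 and Bowtie2 2.2.3 were used, per the submitters' processing notes. What each did, and the annotation, strand setting and filters, is not stated there. The headers of the deposited files name no unit, and the values were taken here as FPKM, an inference from their range and from Cufflinks in those notes.

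Reads were estimated as FPKM times transcript length minus 210 nt (GENCODE M21, GRCm38) times depth. Depth was the highest value with a strong peak of low genes, of 1 annotated transcript, at 1 read. That peak held 77 to 100 of the 219 to 241 low genes considered in a library. Of values of up to 20 reads in genes with 1 annotated transcript, 64.8% to 69.7% lay within 0.1 of a whole number. Evenly spread values would give 20%. Depth and the 210 nt were fitted on these same genes, so this share is not an independent check. For genes with several transcripts the reads are approximate, and PCR copies among them are not independent, so intervals cover counting error only. Differences are log2(FPKM + 1) and were counted at 2-fold where either library reached 1 FPKM. With single libraries there is no test and no p-value. The procedure was tested on simulated data. Python 3.11.15, pandas 2.3.3 and scipy 1.17.1 were used.

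The members, gene lists and rules were chosen with earlier results of these data known. The rule named all 8 members, up to 4 genes a list with the largest differences between genotypes, and the 5 genes nearest in pattern to Igj and to the mean of the other 7. Xbp1, Siglech, Ccr9, Cd209d, Krt8, Col1a1 and Spata24 were named outside it or for a check. Mzb1 was matched through a RefSeq synonym. Alternatives were other pseudocounts, filters, scalings, and medians without Igj or Slpi.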

Additional observations from a re-analysis of the deposited data

How the results depend on the processing

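Each of the 8 genes kept the sign of its difference in all 3 comparisons under the 4 rescalings. The pseudocounts of 0.1 and 5 change the size of a difference but cannot change its sign. For Fkbp11 and Tnfrsf17 in labelled KO minus WT the sign rests on 1 to 4 reads and was within counting error. The median of the 8 genes ranged from -0.63 to -0.39 for Tg minus WT, from -0.32 to -0.13 for labelled KO minus WT and from -1.97 to -0.81 for transplanted minus steady-state WT, the extremes of the last being the pseudocounts of 0.1 (-1.97) and 5 (-0.81). Without Igj, as without Slpi, the medians were -0.44, -0.26 and -1.10 in the same order of comparisons. Their signs could not change, because at least 6 of the 8 genes were lower in each comparison. Igj was at -0.70 for Tg minus WT when libraries were rescaled to the same sum, which moved the median of all genes to -0.13 there and to -0.12 for transplanted minus steady-state WT. With a pseudocount of 5 it was at -3.85 for transplanted minus steady-state WT. Counts over all genes moved by more than 1.5 times with the pseudocount. At 0.1 there were 275 higher and 159 lower in Tg, 154 and 267 in the library labelled KO, and 346 and 158 in transplanted WT. At 5 these were 46 and 30, 18 and 51, and 65 and 27. A filter of 5 FPKM left 69 higher and 44 lower in Tg, 80 lower in the library labelled KO and 41 lower in transplanted WT, from fewer genes tested. Rescaling to the same sum gave 117 higher in the library labelled KO. Without the filter the median of plasma cell surface genes changed sign, to -0.0081 for Tg minus WT and -0.057 for transplanted minus steady-state WT. No paired analysis was possible because each group has 1 library. Depth limits Fkbp11 and Tnfrsf17, which rest on 1 to 4 reads in the transplant libraries.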

Other observations

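Markers of B1 and marginal zone B cells, which secrete IgM readily, were also read. Of 8 at 1 FPKM or more, 5 were higher in Tg than in WT at steady state, with a median of 0.36. In the library labelled KO 8 of 9 were lower than in transplanted WT, with a median of -0.46, and 8 of 9 were higher in transplanted than in steady-state WT, with a median of 0.78. Cd9 was at 7.84 FPKM in the library labelled KO, 12.3 in transplanted WT, 11.5 in Tg and 6.52 in steady-state WT.

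Markers of T and NK cells summed to 5.54 FPKM in the library labelled KO, 12.0 in transplanted WT, 7.07 in Tg and 9.28 in steady-state WT, over 11 genes. Among stromal, endothelial and epithelial markers Krt8 was listed at 0 in all 4 libraries and Col1a1 stood at 0.316 to 0.365 FPKM. Cxcl12, named above among the genes nearest to Igj, was 12.2-fold lower (5.96 to 29.2) in transplanted than in steady-state WT. Pecam1 stood at 84.7 to 90.7 FPKM. Cdh5, an endothelial cadherin gene, was at 0.548 FPKM in the library labelled KO, 0.512 in transplanted WT, 1.42 in Tg and 1.01 in steady-state WT.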
